A study of Homo sapiens with 4 samples.

Results

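The tumour suppressor p53 is a transcription factor, and the genes described here are 35 genes of its circuit. They are its negative regulators and targets listed as non-apoptotic, although APAF1, AEN and PERP among them have roles in apoptosis. The 35 genes were chosen by name and had to pass the filter on low counts. The list was drawn up with earlier results of these libraries known, so its counts are not those of a list chosen blind to the data. All 35 were found among the 23459 genes listed in each library, and all 35 passed that filter, which kept genes with a CPM (count scaled to the total count of its library) above 1 in at least 2 libraries and retained 12559 genes. The lowest of them was ACER2, with a CPM from 1.87 to 5.38. The libraries come from hTERT RPE-1 cells, a wild-type human cell line from the retinal pigment epithelium that is immortalized with telomerase. The cells were kept for 48 h in 0.1% serum, which arrests them in G0/G1, and were then exposed to 200 μM merbarone, a catalytic inhibitor of type II DNA topoisomerases (TOP2), for 4 h or for 8 h. There are 2 libraries per time, and both times are treated. Untreated cells were not analysed here, so a value at 8 h is compared with 4 h of exposure and never with unexposed cells, and time of exposure cannot be told apart from time in low serum.

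In unstressed cells p53 is kept scarce by MDM2, a ubiquitin ligase that marks it for degradation. DNA damage and other stresses release it from MDM2, and p53 then binds DNA as a tetramer and activates genes that repair damage, slow growth, adjust metabolism or lead to cell death. MDM2 and PPM1D are themselves activated by p53 and shut it down again, which makes the circuit a feedback loop.

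Between 8064450 and 10324697 reads were counted on genes per library. Markers of the labelled epithelium were present only in part. MITF, OTX2, PAX6, KRT8 and KRT18 passed the filter, whereas RPE65, BEST1 and RLBP1 stayed below a CPM of 1 in every library and TYR had no count. Of the 13 listed epithelial markers 7 passed, and their summed CPM was 858.3 to 912.8 at 4 h and 727.0 to 758.1 at 8 h. Most of this sum came from the keratins KRT8 and KRT18. KRT18 fell from a CPM of 346.7 and 381.1 to 237.3 and 238.9. PAX6 fell from 41.4 and 42.1 to 37.5 and 36.6, while SERPINF1 rose from 2.32 and 2.16 to 3.10 and 3.35. In CPM the times overlapped for KRT8 (364.2 and 389.4, then 337.2 and 377.2), MITF (85.4 and 78.4, then 89.7 and 83.0), OTX2 and PMEL. Of 7 fibroblast markers 5 passed, mostly through THY1, and their summed CPM was 626.8 to 642.5 at 4 h and 536.8 to 562.6 at 8 h. The summed CPM of 4 leukocyte markers stayed at or below 2.28 and that of 3 keratinocyte markers at or below 0.678, and of 4 endothelial markers only KDR passed, with a sum of 4.22 to 8.23. The part of these shifts in the values below was not tested.

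Most of the module was higher at 8 h than at 4 h. Of the 35 genes, 28 rose and 2 fell at a Benjamini-Hochberg adjusted p below 0.05 in edgeR's quasi-likelihood test, while 5 did not pass. Over all 12559 retained genes the same test called 19.9% higher and 18.8% lower. The rises were moderate, since the median log2 fold change (log2FC, 8 h against 4 h) of the 35 genes was 0.49, beside −0.0024 for all retained genes. With an absolute log2FC above 1 asked for as well, only FDXR and ACER2 were called higher. Over all genes 1.45% were called higher and 3.88% lower with both thresholds. No member was called lower with both thresholds by edgeR, Limma-Voom or DESeq2, and the 2 members past an unadjusted p of 0.05 and below 0 were PLK2 and GADD45A. In TMM-normalized counts, both 8 h libraries lay above both 4 h libraries for 31 genes and below them for 2, and the times overlapped for POLH and APAF1. Over all genes 34.8% were separated upwards and 34.9% downwards. The study describes the libraries of a time as biological replicates, but the labels do not say that they come from separate cultures, and the p-values measure the spread between these libraries, which may be technical. In bulk RNA a higher level per cell and more cells expressing a gene cannot be told apart.

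**Figure D1:**
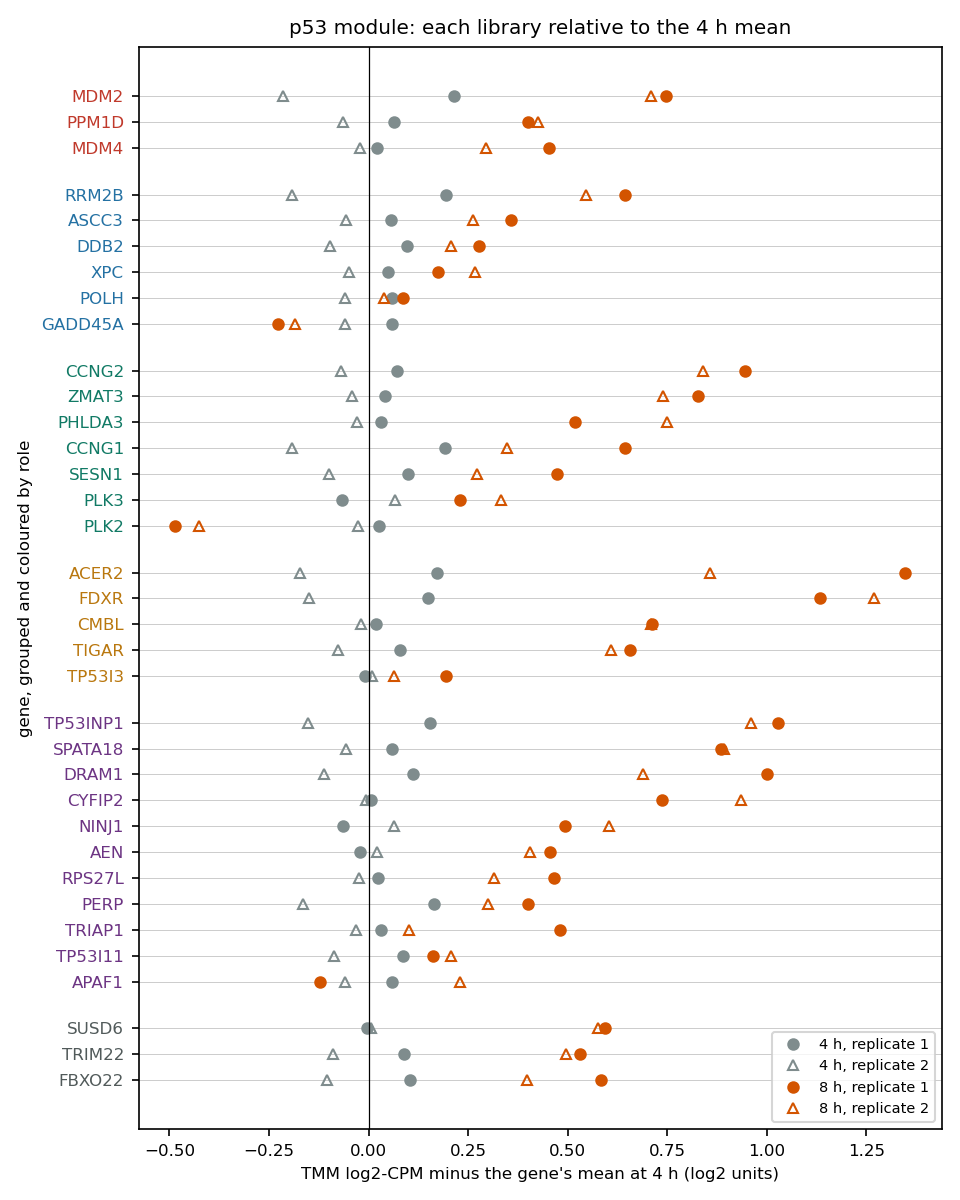
TMM log2-CPM of each of the 35 genes in the 4 libraries, drawn as the difference from the gene's mean at 4 h (x axis, log2 units), with genes grouped and coloured by role. Grey symbols are the 4 h libraries and orange symbols the 8 h libraries, circles being replicate 1 and triangles replicate 2. For 31 genes both orange symbols lie to the right of both grey ones, and for PLK2 and GADD45A both lie to the left.

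The promoters of the module are shown because p53 recognizes a known DNA consensus. That consensus is a half-site of 10 bases that is its own reverse complement, so a search of 1 strand covers both, and a full site is a pair of half-sites with at most 13 bases between them. A half-site was counted when it matched the consensus exactly. A full site was counted when both half-sites kept the 4 central bases and the pair had at most 3 mismatches, so a full site can contain an exact half-site. RefSeq promoter windows of GRCh38.p14, from 250 bases before the annotated start to 50 bases after it, were found for 27 of the 35 genes, 39 windows in all. RRM2B, GADD45A, ASCC3, PHLDA3, CMBL, TP53INP1, TRIM22 and FBXO22 had no window. An exact half-site lay in 6 of the 39 windows (15.4%), against 6.63% of all 35116 windows, and a full site in 4 (10.3%), against 4.49%. In the 14859 windows of retained genes the shares were 5.64% and 3.57%. In the 81 windows of the other p53 targets described further down they were 6.17% and 4.94%, about the shares of all windows. Windows of the same gene can overlap, as in MDM2 and CCNG1, so they are not separate units. Counted by gene, 6 of 27 members (22.2%) had a half-site and 4 (14.8%) a full site. The shares by gene were 7.51% and 4.81% for retained genes and 9.26% and 7.41% for the other targets. The stretches below are the 60 bases around each match, written 5′ to 3′ on the strand of the gene, with the matched half-sites in capitals.
DDB2: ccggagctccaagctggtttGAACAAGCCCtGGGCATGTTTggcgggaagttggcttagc
AEN: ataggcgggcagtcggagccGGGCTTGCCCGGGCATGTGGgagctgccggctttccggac
SESN1: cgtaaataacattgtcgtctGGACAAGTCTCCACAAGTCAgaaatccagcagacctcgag
RPS27L: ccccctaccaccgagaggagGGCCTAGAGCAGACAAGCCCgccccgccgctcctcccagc
FDXR: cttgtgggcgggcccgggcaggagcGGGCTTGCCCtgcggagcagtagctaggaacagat
PLK2: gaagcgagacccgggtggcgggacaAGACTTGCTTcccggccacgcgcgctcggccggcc
They lie at chr11:47214959-47215018 (plus) for DDB2, chr15:88621286-88621345 (plus) for AEN, chr6:109008998-109009057 (minus) for SESN1, chr15:63157507-63157566 (minus) for RPS27L, chr17:74872971-74873030 (minus) for FDXR and chr5:58460184-58460243 (minus) for PLK2, where the brackets give the strand. DDB2 held the closest match, a pair of exact half-sites 1 base apart that runs from 5 to 25 bases after the start. In AEN the pair had no spacer and 2 mismatches, and in SESN1 and RPS27L no spacer and 3 mismatches. RPS27L held a further full site with 3 mismatches, from 186 to 155 bases before the start. FDXR and PLK2 held only a single half-site, 11 to 2 and 132 to 123 bases before the start. DDB2, SESN1 and FDXR have further annotated starts whose windows held no match, and each distance is from the start of the matching window.

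These 6 genes did not share a direction. FDXR had one of the largest rises of the module (log2FC 1.20), AEN, RPS27L and SESN1 rose by less (0.43, 0.39 and 0.38), DDB2 did not pass the test (0.24) and PLK2 fell (−0.46). The 4 windows of MDM2 held no match, which says only that these letters are not in them. A match is a description of sequence and not evidence of binding, and p53 binding was not measured in these libraries.

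**Figure D2:**
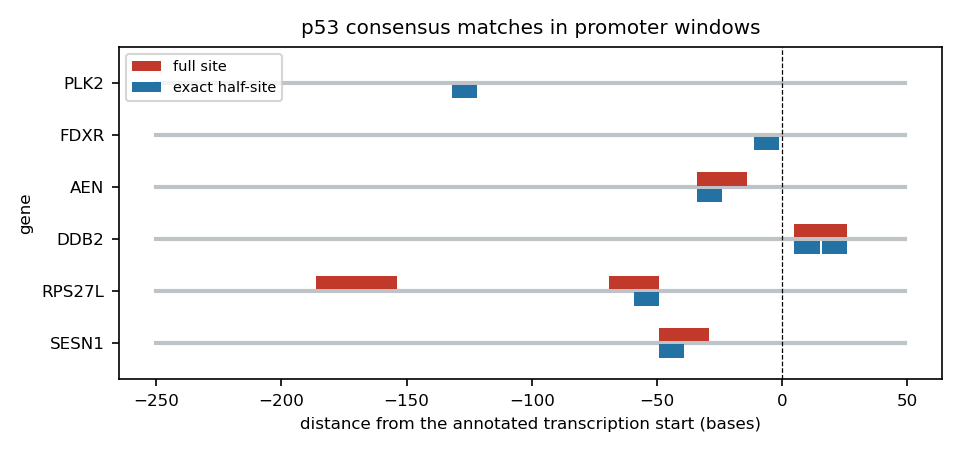
Positions of p53 consensus matches in the promoter windows of the 6 genes that hold one, in bases from the annotated start (x axis, dashed line at the start). Red bars above the line are full sites and blue bars below it exact half-sites. The matches of AEN, SESN1, FDXR and DDB2 lie within 50 bases of the start, and those of PLK2 and the second site of RPS27L lie more than 100 bases before it.

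All 3 negative regulators of p53 rose. MDM2 (chromosome 12, 69201957 to 69239324, plus strand, hg19) had 3708 and 2757 TMM-normalized counts in the 4 h libraries against 5368 and 5229.7 in the 8 h libraries. The 8 h libraries agreed closely, while the 4 h libraries lay further apart, with replicate 1 the higher. The difference was 1.64-fold (log2FC 0.71, standard error 0.10, adjusted p = 1.44e-05), and the log2FC was 0.52 without 4 h replicate 2 and 0.93 without 4 h replicate 1. PPM1D, the phosphatase WIP1 that removes activating phosphates from p53 and from the damage kinases, had 535 and 489.5 counts at 4 h against 676 and 688 at 8 h (log2FC 0.41, standard error 0.10, adjusted p = 0.00212). MDM4, a relative of MDM2 that binds and silences the activation domain of p53, had 206 and 200.4 at 4 h against 279 and 249.7 at 8 h (log2FC 0.38, standard error 0.13, adjusted p = 0.0291). In each of these genes the times did not overlap. MDM4 no longer passed without 4 h replicate 1 (adjusted p = 0.119), without 4 h replicate 2 (0.153) or without 8 h replicate 1 (0.151), and PPM1D no longer passed without 4 h replicate 2 (0.0546).

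Genes of DNA repair and nucleotide supply had the lowest median among the 6 roles, a log2FC of 0.23. Of the 6 genes, 3 rose, 1 fell and 2 did not pass. RRM2B, the p53-inducible small subunit of ribonucleotide reductase that supplies deoxynucleotides to resting cells, had 1071 and 819 counts at 4 h against 1465 and 1368 at 8 h. Its 8 h libraries both lay above the 4 h libraries (log2FC 0.58, standard error 0.10, adjusted p = 1.78e-04). ASCC3, a helicase used in the repair of alkylated DNA, went from 915 and 846 to 1127 and 1055 (log2FC 0.31, standard error 0.09, adjusted p = 0.00781). XPC, which recognizes distorted DNA in nucleotide excision repair, went from 1310.2 and 1223 to 1429.8 and 1523 (log2FC 0.22, standard error 0.08, adjusted p = 0.0393). The rise of XPC was the smallest of the 28, and its exons overlap an antisense gene.

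DDB2, which finds ultraviolet lesions together with DDB1, had 253 and 221 counts at 4 h against 287 and 273 at 8 h. Its times did not overlap, but the difference did not pass the test (log2FC 0.24, standard error 0.13, adjusted p = 0.146, interval of 2 standard errors on each side −0.02 to 0.50), and without 4 h replicate 2 the log2FC was 0.15 (adjusted p = 0.553). POLH, the translesion polymerase eta, had 806 and 742 at 4 h against 821 and 795 at 8 h, and its times overlapped (log2FC 0.06, standard error 0.09, adjusted p = 0.608, interval −0.12 to 0.24), with a log2FC between 0.0057 and 0.11 when each library was left out. GADD45A, a stress sensor that binds PCNA and stress kinases, went the other way. It had 6631 and 6118 counts at 4 h against 5436 and 5600.0 at 8 h, so that both 8 h libraries were the lower (log2FC −0.21, standard error 0.07, adjusted p = 0.0260). The call of GADD45A was lost without 4 h replicate 1 (0.269) and without 4 h replicate 2 (0.0591), that of ASCC3 without 4 h replicate 2 (0.121), and that of XPC without 4 h replicate 1 (0.0978), 4 h replicate 2 (0.278) or 8 h replicate 2 (0.131), all as adjusted p.

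Among the 7 brakes on growth and the cell cycle, 6 rose and PLK2 fell. Both cyclin G genes rose. CCNG2 had 279 and 253 counts at 4 h against 513 and 477 at 8 h, a 1.86-fold difference (log2FC 0.90, standard error 0.11, adjusted p = 4.99e-06). CCNG1, which brings the phosphatase PP2A to MDM2, had 2909 and 2227 at 4 h against 3976 and 3242 at 8 h (log2FC 0.49, standard error 0.11, adjusted p = 0.00114). In CCNG1 replicate 1 was the higher at both times, and 8 h replicate 2 lay nearer to 4 h replicate 1 than to its own replicate. ZMAT3, a zinc finger protein that binds RNA and shifts splicing, went from 2559 and 2415 to 4409 and 4151 (log2FC 0.78, standard error 0.07, adjusted p = 1.62e-07). PHLDA3, which competes with the kinase AKT for membrane lipids, went from 2876 and 2759 to 4037 and 4734 (log2FC 0.64, standard error 0.08, adjusted p = 5.82e-06). Both had narrow replicates at 4 h and all 8 h values above them. SESN1, a sestrin that restrains mTORC1 when amino acids are short, went from 956 and 833 to 1239 and 1078 (log2FC 0.38, standard error 0.09, adjusted p = 0.00360).

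The polo-like kinases PLK2 and PLK3, both stress-induced relatives of the mitotic kinase PLK1, moved in opposite directions. PLK2 (chromosome 5, 57749809 to 57755966, minus strand, hg19) had 17700.3 and 17052 counts at 4 h against 12406 and 12927 at 8 h, a fall to 0.73 of the 4 h value (log2FC −0.46, standard error 0.07, adjusted p = 2.20e-05). It was the most abundant member in every library, and its times lay far apart compared with its replicates. PLK3 had 2333 and 2558 at 4 h against 2866 and 3075 at 8 h (log2FC 0.28, standard error 0.08, adjusted p = 0.00777), and here replicate 2 was the higher at both times. Without 4 h replicate 2 the rises of CCNG1 (log2FC 0.31, adjusted p = 0.0655) and SESN1 (log2FC 0.28, adjusted p = 0.101) no longer passed, nor did that of PLK3 without 4 h replicate 1 (log2FC 0.21, adjusted p = 0.171). The fall of PLK2 passed without each of the 4 libraries in turn.

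**Figure D3:**
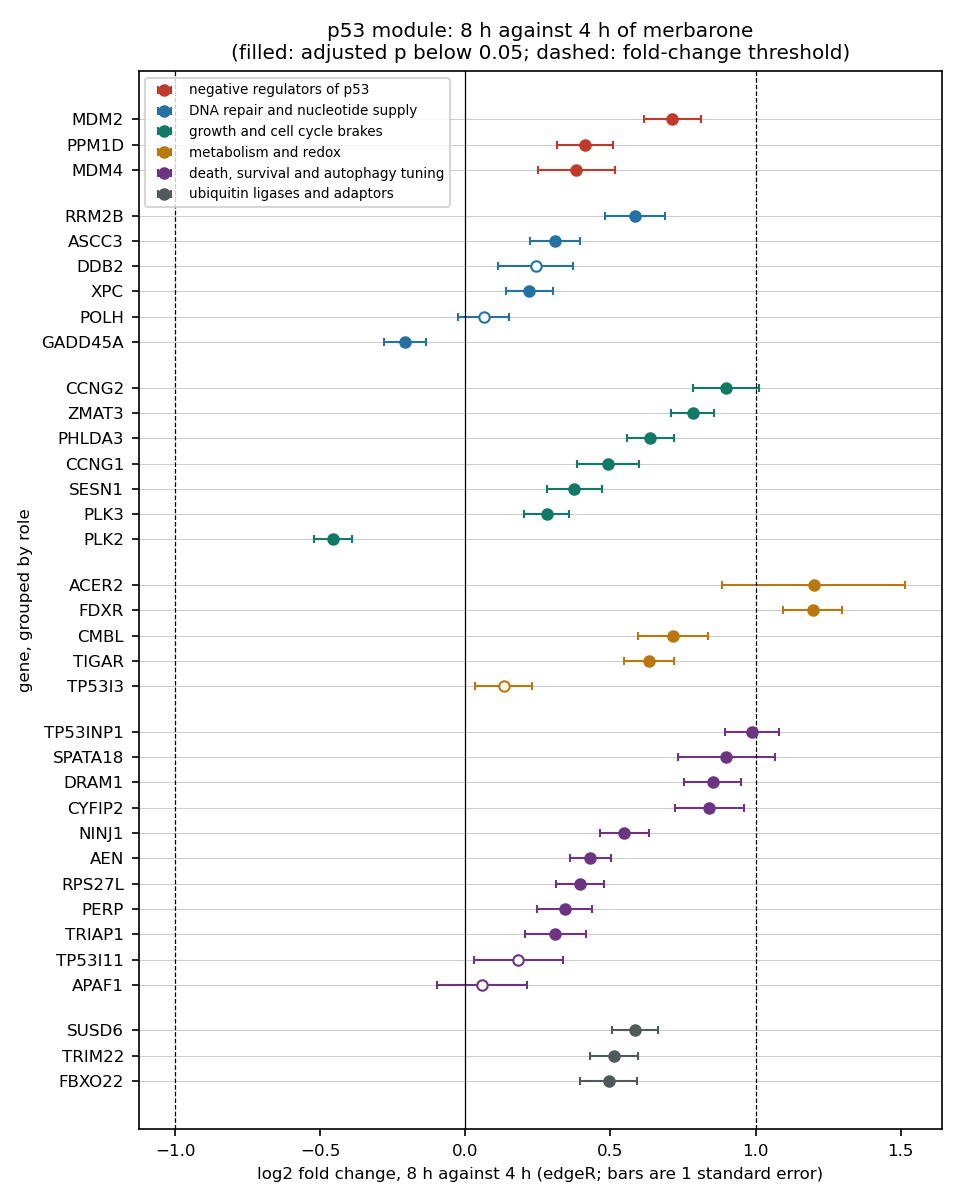
Log2 fold change of each gene, 8 h against 4 h, from edgeR (x axis), with genes grouped by role on the y axis. Bars are 1 standard error, filled circles have an adjusted p below 0.05, and dashed lines mark the fold-change threshold at −1 and 1. FDXR and ACER2 lie beyond the threshold on the right, with a wide bar for ACER2, and PLK2 and GADD45A are the filled circles to the left of 0.

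Of the 5 genes of metabolism and redox balance, 4 rose, and the 2 past the fold-change threshold were among them. FDXR (chromosome 17, 72858619 to 72869156, minus strand, hg19), the mitochondrial reductase that passes electrons to ferredoxins for iron-sulfur cluster and steroid synthesis, had 612 and 498 counts at 4 h against 1213 and 1333 at 8 h. Every 8 h value was far above every 4 h value, a 2.29-fold difference (log2FC 1.20, standard error 0.10, adjusted p = 3.20e-08), and 99.1% of all retained genes had a lower log2FC. ACER2, a Golgi ceramidase that releases sphingosine, had a log2FC of the same size on few reads. It had 25 and 19 raw counts at 4 h and 52 and 30 at 8 h (log2FC 1.20, standard error 0.32, adjusted p = 0.00533), and its call was lost without 4 h replicate 2 (log2FC 1.02, adjusted p = 0.0747) or without 8 h replicate 1 (log2FC 0.91, adjusted p = 0.0676). In both cases FDXR was then the single member past both thresholds.

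CMBL, a hydrolase of lactones, went from 227 and 221 to 368 and 368 normalized counts (log2FC 0.72, standard error 0.12, adjusted p = 1.12e-04). TIGAR, a phosphatase of fructose 2,6-bisphosphate that diverts glucose from glycolysis towards NADPH production, went from 861 and 772 to 1287 and 1244 (log2FC 0.63, standard error 0.09, adjusted p = 1.27e-05). The replicates of both genes lay close together at each time, and those of CMBL at 8 h were nearly equal. TP53I3, a quinone oxidoreductase tied to reactive oxygen species, had 525 and 531 counts at 4 h against 604 and 552 at 8 h. The 8 h libraries were the higher, but by less than the test could call (log2FC 0.13, standard error 0.10, adjusted p = 0.304, interval −0.06 to 0.33), and the log2FC was 0.06 without 8 h replicate 1.

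Of the 11 genes that tune death, survival and autophagy, 9 rose and 2 did not pass. The 4 largest rises were those of TP53INP1, SPATA18, DRAM1 and CYFIP2. TP53INP1, a nuclear partner of p53 that also acts in autophagy, had 1014 and 819.5 counts at 4 h against 1860.3 and 1774 at 8 h. It lay just inside the fold-change threshold (1.98-fold, log2FC 0.99, standard error 0.09, adjusted p = 1.62e-07), and passed it without 4 h replicate 1 (log2FC 1.14) or without 8 h replicate 2 (1.02). SPATA18, which promotes the removal of damaged mitochondria, went from 102 and 94.3 to 183 and 184 (log2FC 0.90, standard error 0.17, adjusted p = 2.84e-04). DRAM1, a lysosomal membrane protein of autophagy, went from 1587 and 1359.8 to 2942 and 2371 (log2FC 0.85, standard error 0.10, adjusted p = 1.63e-06). These genes were all clear of overlap between the times, although the DRAM1 replicates differed at both. CYFIP2, a subunit of the WAVE complex that drives actin branching, went from 243 and 241 to 405 and 465 (log2FC 0.84, standard error 0.12, adjusted p = 1.86e-05).

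The other 5 rises were smaller. NINJ1, which ruptures the plasma membrane in lytic death, went from 937 and 1025 to 1381 and 1489.8 (log2FC 0.55, standard error 0.09, adjusted p = 5.21e-05). AEN, a nuclease that degrades DNA in apoptosis, went from 3171 and 3263 to 4412 and 4258 (log2FC 0.43, standard error 0.07, adjusted p = 1.06e-04). RPS27L, a copy of the ribosomal protein RPS27, went from 1226 and 1185 to 1666 and 1499.7 (log2FC 0.39, standard error 0.08, adjusted p = 9.06e-04), and reads that also map to RPS27 would have been dropped by the authors' mapping. PERP, a membrane protein of desmosomes and apoptosis, and TRIAP1, a small mitochondrial protein that favours survival, had uneven replicates. PERP had 1972 and 1568 counts at 4 h against 2319.5 and 2166 at 8 h (log2FC 0.34, standard error 0.09, adjusted p = 0.00688), and without 4 h replicate 2 its difference was no longer called (log2FC 0.19, adjusted p = 0.224). TRIAP1 had 777 and 743 at 4 h against 1062 and 816 at 8 h (log2FC 0.31, standard error 0.11, adjusted p = 0.0257). Its call was lost without 8 h replicate 1 (log2FC 0.10, adjusted p = 0.469), without 4 h replicate 1 (adjusted p = 0.0974) and without 4 h replicate 2 (adjusted p = 0.166).

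APAF1, the scaffold of the apoptosome, and TP53I11 did not pass. APAF1 had 194 and 179 counts at 4 h against 171 and 219 at 8 h, with the 8 h replicates on either side of the 4 h libraries (log2FC 0.06, standard error 0.15, adjusted p = 0.801, interval −0.25 to 0.37). TP53I11 had 168 and 149 at 4 h against 177 and 183 at 8 h (log2FC 0.18, standard error 0.15, adjusted p = 0.367, interval −0.12 to 0.49). Counts of both genes were under 250 per library. The log2FC of TP53I11 was 0.10 without 4 h replicate 2, and neither gene passed when a library was left out.

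The 3 genes tied to ubiquitin ligases rose by similar amounts. SUSD6, a membrane protein that recruits such ligases, had 1125 and 1133 counts at 4 h against 1704 and 1685 at 8 h (log2FC 0.59, standard error 0.08, adjusted p = 1.09e-05). TRIM22, an antiviral protein with a ligase domain, had 1279 and 1130.5 at 4 h against 1739 and 1697 at 8 h (log2FC 0.51, standard error 0.08, adjusted p = 8.63e-05). FBXO22, the F-box adaptor of a ligase that targets histone demethylases, had 705 and 610.1 at 4 h against 985 and 865 at 8 h (log2FC 0.49, standard error 0.10, adjusted p = 5.62e-04). Replicates of SUSD6 were nearly equal at each time, and none of the 3 genes overlapped between times. TRIM22 shares exonic bases with olfactory receptor genes on its own strand and FBXO22 with NRG4 on the opposite strand, and reads in those bases could belong to either gene.

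The 4 h replicates differed in the module itself. Replicate 1 was the higher at 4 h in 30 of the 35 genes, with a median difference of 0.12 (TMM log2-CPM, replicate 1 minus replicate 2), while it was the higher in 50.0% of all retained genes. The largest such difference, 0.43, was that of MDM2. At 8 h replicate 1 was the higher in 23 of the 35 genes, with a median of 0.05. Among the genes that rose, a higher value at 4 h is one nearer to the 8 h libraries. The share of all genes called was counted for the main fit only. A loss of module calls in another fit therefore cannot be told apart from a loss over all genes. Without 4 h replicate 2 there were 19 members called higher and 1 called lower, with a median log2FC of 0.39, and without 4 h replicate 1 there were 24 and 1, with a median of 0.51. Over all 12 alternatives in test, scaling, filter, block and libraries, 18 of the 28 genes that rose stayed called higher in each one. They were MDM2, RRM2B, CCNG2, PHLDA3, ZMAT3, TIGAR, FDXR, CMBL, TP53INP1, AEN, RPS27L, DRAM1, SPATA18, NINJ1, CYFIP2, TRIM22, FBXO22 and SUSD6, and of the genes that fell PLK2 stayed called.

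Abundance differed between the module and the rest of the genes, and called rises were more frequent among abundant genes. The median of mean log2-CPM was 6.73 in the module and 4.91 over all genes. When all retained genes were divided into 3 equal classes by mean log2-CPM, 26 members lay in the high class, where 22 were called higher and 2 lower, beside 35.0% higher and 16.1% lower over all genes of that class. In the middle class 4 of 7 members were called higher, beside 17.8% of all genes, and in the low class both members, ACER2 and SPATA18, were, beside 6.95%. The median log2FC of members was 0.46 in the high class and 0.38 in the middle class, beside 0.11 and −0.02 over all genes. After each library was corrected for its trend with mean log2-CPM, 23 members were called higher and 2 lower, with a median log2FC of 0.41. The share of all genes called after this correction was not counted. Among called members the log2FC moved by over 1.5 times in XPC (0.12), PLK3 (0.15), PERP (0.23), AEN (0.28) and GADD45A (−0.38), of which AEN and GADD45A stayed called. Within the module, Spearman's rho between mean log2-CPM and log2FC was −0.10 over 35 genes, which come from the same 4 libraries.

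**Figure D4:**
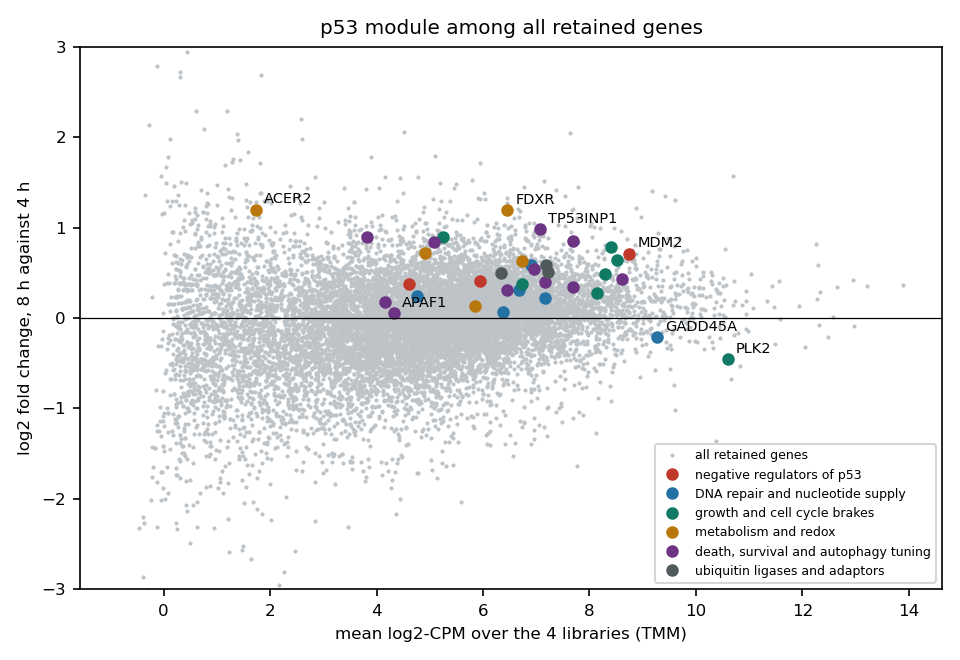
Mean TMM log2-CPM over the 4 libraries (x axis) against log2 fold change, 8 h against 4 h (y axis), for all retained genes in grey and the 35 genes in the colour of their role. The y axis is limited to −3 and 3, which leaves out 6 genes, none of them a member. Most members lie above 0 on the right side of the cloud, PLK2 and GADD45A are the abundant members below 0, and ACER2 is the one at the lowest abundance.

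Levels were also compared per length, as TMM-normalized CPM per kilobase of the Ensembl canonical transcript (RPKM). The lengths come from GENCODE on GRCh37 and not from the annotation used for counting, which is not given in the sources used here, so only large gaps are described. PLK2 and GADD45A, the genes that fell, had the highest levels, at 651 and 492 RPKM at 4 h and 474 and 426 at 8 h. They were followed at 4 h by CCNG1, AEN, PLK3 and PHLDA3, all between 107 and 109.6. The order of these 4 is not settled at 4 h, since CCNG1 alone ranged from 95.1 to 124 between replicates. At the other end were MDM4, with 2.11 at 4 h and 2.75 at 8 h, and ACER2, with 0.746 and 1.70. MDM2 reached 45.0 and 73.8, so its level per length was far above that of MDM4 in each library. FDXR moved from rank 15 to rank 11 of the 35 genes, but its rank is not settled at either time. At 4 h it had 31.4, beside 33.3 for TP53I3 and 29.0 for ZMAT3, and at 8 h 71.9, beside 73.8 for MDM2.

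The members are spread over 13 chromosomes, with at most 5 on one, and all are protein-coding. Their canonical transcripts span a median of 30.3 kb of the genome, against 28.4 kb over the retained genes with a position. Members called higher were found at every length. In 3 equal classes of span set on all genes, 9 of 12 short members (up to 15.7 kb), 13 of 16 middle ones and 6 of 7 long ones (from 49.8 kb) were called higher, beside 20.6%, 18.1% and 21.8% of all genes. Both members that fell, PLK2 and GADD45A, were short. Spearman's rho between span and log2FC was 0.24 over the 35 genes. The exons of 15 of the 35 members overlap those of another annotated gene, a share that was not counted over all genes. TIGAR and PHLDA3 share up to 1711 and 598 bases with a gene on their own strand. MDM2 shares up to 785 bases with a gene on the opposite strand, and it also overlaps a processed pseudogene on its own strand. Reads in those bases could belong to either gene, and whether the counting used the strand is not given in the sources used here.

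Among other genes of the pathway, most called targets rose, whereas called regulators went both ways. From a list of 66 further genes described as p53 targets, 62 passed the filter. Of these 62 genes 30 rose (48.4%) and 4 fell (6.45%), beside the 19.9% and 18.8% of all genes. Their median log2FC was 0.31, and 3 of the rises passed the fold-change threshold as well. These 3 were GDF15 and, with under 100 normalized counts in every library and named after their values were seen, TNFRSF10A (log2FC 1.27) and VWCE (1.72). The largest called rises among genes with at least 100 normalized counts were in GDF15, PTP4A1 and BCL2L1. GDF15, a secreted stress cytokine, went from 144 and 119.7 to 325 and 365 (log2FC 1.38, standard error 0.14, adjusted p = 4.38e-07). PTP4A1, a tyrosine phosphatase, went from 2666 and 2157 to 4733 and 4858 (log2FC 0.99, standard error 0.09, adjusted p = 6.19e-08). BCL2L1, whose main product BCL-XL blocks apoptosis, went from 4316 and 4318 to 8431 and 8142 (log2FC 0.94, standard error 0.07, adjusted p = 6.39e-09). All 3 were separated between times by far more than between replicates.

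The 4 falls called in that list were small. IER5, an immediate-early gene, had a log2FC of −0.34 (adjusted p = 0.00153), NADSYN1, an enzyme of NAD synthesis, of −0.34 (0.00966), and KCNN4, a potassium channel, of −0.33 (0.00862). The fourth was ORAI3, a calcium channel subunit (−0.31), named after its value was seen. CDKN1A, which encodes the CDK inhibitor p21 and was named after its values were seen, had 36830.1 and 34018 counts at 4 h against 61309.5 and 63568 at 8 h (log2FC 0.82, standard error 0.06, adjusted p = 1.21e-08), more reads than any member in each library. The count of falls in the list was 1 without 4 h replicate 1, 3 without 4 h replicate 2 and 6 without 8 h replicate 2. With library size alone as the scaling it was 8.

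Of 32 further proteins that act on p53, all passed the filter, and 10 rose (31.3%, beside 19.9% of all genes), 8 fell (25.0%, beside 18.8%) and 14 did not pass, with a median log2FC of 0.16. The rises included kinase and coactivator genes. HIPK2, a kinase that phosphorylates p53, went from 743 and 805 to 1636 and 1562 (log2FC 1.05, standard error 0.08, adjusted p = 1.86e-08). EP300, an acetyltransferase of p53 and histones, went from 443 and 476 to 839 and 939 (log2FC 0.95, standard error 0.10, adjusted p = 3.76e-07). TP53BP2, which encodes ASPP2 and directs p53 to its apoptotic targets, went from 970.1 and 944 to 1761 and 1513 (log2FC 0.78, standard error 0.09, adjusted p = 1.36e-06). The falls were led by the checkpoint kinases CHEK1, ATR and CHEK2. CHEK1 went from 398 and 346 to 226 and 163 (log2FC −0.92, standard error 0.15, adjusted p = 5.78e-05), ATR from 264 and 247 to 177 and 134 (log2FC −0.71, standard error 0.15, adjusted p = 0.00110) and CHEK2 from 105 and 115 to 65.5 and 73.3 (log2FC −0.67, standard error 0.20, adjusted p = 0.0117). None of these 6 genes overlapped between the times. Without 4 h replicate 2 there were 6 rises and 5 falls in this list, and without 8 h replicate 1 there were 10 and 5.

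**Figure D5:**
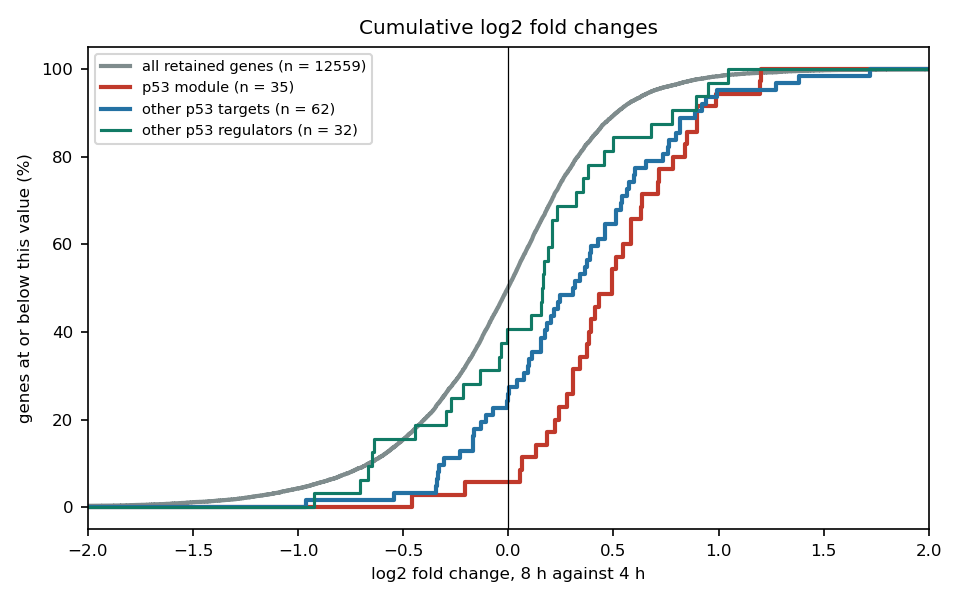
Cumulative share of genes (y axis, percent) at or below a given log2 fold change, 8 h against 4 h (x axis), for all 12559 retained genes, the 35 genes of the module, 62 other p53 targets and 32 other p53 regulators. The x axis stops at 2 on either side of 0. The curve of the module lies to the right of that of all genes over most of the range, with its median at 0.49, that of the other targets lies between them at 0.31, and that of the regulators has its median at 0.16.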

How the data were processed

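RNA from serum-starved, merbarone-treated RPE-1 cells was sequenced from stranded mRNA libraries as single reads, 2 libraries per time. The authors mapped reads to hg19 with Bowtie 1.2.0, kept reads that map to a single position, and deposited raw counts per gene under NCBI Gene identifiers, of which 23308 were paired with symbols. The submitters' processing notes also name deepTools 2.4.1. The annotation, counting tool and use of strand are not given in the sources used here, and a dropped multi-mapping read lowers genes with close copies. Depth was 8064450 to 10324697 counts per library.

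The filter asked for a CPM above 1 in 2 or more libraries, and times were compared with edgeR 4.0.16 (R 4.3.3) by TMM normalization and the quasi-likelihood test, with Benjamini-Hochberg adjustment over all 12559 retained genes. A gene was called at an adjusted p below 0.05, and past the fold-change threshold when the absolute log2FC was also above 1. TMM-normalized counts are scaled to the mean effective library size of 9586677. Standard errors are the log2FC divided by the square root of F. The biological coefficient of variation was 6.52%. An exact permutation test of 2 against 2 libraries cannot go below p = 0.333 and was not used. Alternatives were limma 3.58.1 (voom), DESeq2 1.42.0, other scalings and filters, a correction of each library for its loess trend with abundance, a replicate block and leaving out each library. On counts simulated for this comparison over 12559 genes, edgeR recovered 90% of genes changed by a log2FC of 1 and 99% of those changed by 2, with 9 false calls. That simulation changed only 200 genes, whereas 19.9% were called higher and 18.8% lower in the data. Its spread between replicates was taken from these same libraries. Changes below a log2FC of 1, such as those of most members, were not simulated, so their recovery is not known.

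All members were named. From the lists of other p53 targets and regulators, the 3 largest rises and falls were named among called genes whose mean normalized count reached 100 at the time with the higher mean. The members and lists were chosen with earlier results of these data known. Positions and lengths are from GENCODE on GRCh37, matched by symbol. Promoter sequences are from RefSeq (GRCh38.p14), and GRCh38 and GRCh37 coordinates were kept apart. The gene that encodes p53 was not analysed here.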

Additional observations from a re-analysis of the deposited data

How the results depend on the processing

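The count of members called higher was 28 with edgeR and also with limma voom, RLE size factors, either filter and the replicate block. It was 23 with DESeq2, with library size alone and with the abundance trend correction, and 19 to 27 when each library was left out in turn. The members that lost their call were MDM4, XPC, CCNG1, ACER2, TRIAP1 and the falling GADD45A with DESeq2, then MDM4, XPC, ASCC3, PLK3 and TRIAP1 with library size alone, and XPC, ASCC3, PLK3, PERP and TRIAP1 with the trend correction. With DESeq2 there was 1 member lower, 1 higher past the fold-change threshold and 5 falling regulators, and library size alone gave 8 falling other targets. That scaling also moved the median log2FC of all genes to −0.11 and that of the members to 0.39. POLH changed sign with library size alone (−0.043) and with the trend correction (−0.018), and APAF1 with library size alone (−0.050) and when a library was left out (−0.12 without 8 h replicate 2 to 0.23 without 8 h replicate 1), none of them called. The cause of these changes was not tested, and the share of all genes called was not counted in the alternative fits. Leaving out each library gave 1 to 2 members lower, 1 to 3 higher past the fold-change threshold, a member median of 0.39 to 0.51, 20 to 30 other targets higher and 1 to 6 lower, and 6 to 11 regulators higher and 5 to 8 lower. In these fits the lone library of a time is assumed to vary like the other pair. Same-numbered libraries deviated together with r = 0.05 over 12559 genes. With 2 libraries per time this cannot show whether the numbers pair the libraries, and the labels do not say. The fit with the replicate block called 28 members higher and 2 lower. The standard error was largest, 0.32, for ACER2, the member with the fewest reads.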
